A study of Mus musculus with 9 samples.

Results

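Retinal neuropeptides are small signalling peptides that are cut from larger precursor proteins. The 8 precursor genes described here were Penk, Npy, Vip, Tac1, Sst, Cck, Gal and Adcyap1, taken by symbol from the 22337 genes of an mRNA sequencing table of mouse retina. The list was drawn up because Penk was higher in rd10 retina than in wild type and lower after vesicle treatment, so the Penk values are given as a description without a test. All 8 had enough counts to be tested in each comparison. The other 7 precursors were tested in a fit over all genes.

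The study examined whether extracellular vesicles of mesenchymal stem cells (MSC-EVs, labelled Exo) act on the rd10 retina. The rd10 mouse carries a mutation of Pde6b, the rod phosphodiesterase subunit, and loses its rods after eye opening. Every retina was taken at postnatal day 28. The WT group held 3 libraries of untreated C57 BL/6J mice. The NS group held 3 libraries of rd10 mice given normal saline, and the MSC-EVs group 3 libraries of rd10 mice given vesicles. Both rd10 groups received 1 μL in both eyes at postnatal days 14 and 21, so injection and genotype cannot be told apart in the comparisons of rd10 with WT. The WT mice came from a different supplier than the rd10 mice, while the treated and saline rd10 mice were littermates. The labels number the libraries but do not say whether a library is 1 animal or a pool, and p-values measure the spread between these libraries only.

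The estimated counts per library summed to between 19491741 in NS replicate 2 and 62532365 in MSC-EVs replicate 3. Levels are given below as counts scaled to library size (CPM) after trimmed-mean (TMM) scaling over the 9 libraries. A call means a Benjamini-Hochberg adjusted p under 0.05 in the quasi-likelihood test of edgeR, with no limit on fold. A standard error is abbreviated SE, and log2 fold changes are differences between groups on the edgeR scale. Libraries of 1 group differed from each other by more than sampling noise (chi-square per degree of freedom 4.1 to 31.31), so none was counted as a duplicate.

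A pair of libraries stood apart from the rest. The 4 Y-linked genes Ddx3y, Kdm5d, Uty and Eif2s3y summed to 183.1 and 188.8 CPM in MSC-EVs replicates 1 and 2, but to between 0.2366 and 0.5006 CPM in the other 7 libraries. MSC-EVs replicates 1 and 2 thus held tissue of males, and the other 7 showed no sign of it. The labels do not give the sex. In MSC-EVs replicates 1 and 2, sex and vesicle treatment cannot be told apart. The values of the precursors in the MSC-EVs group are therefore also given with replicate 3 as its only library. The tissue label was borne out by the retinal markers. The 16 rod markers summed to 92550 to 98830 CPM in WT and to 19120 to 27210 CPM in the 6 rd10 libraries. All 16 were lower in NS-treated rd10 than in WT, with a median log2 fold change of -1.80, and Pde6b itself was lower by 2.23 (log2 fold change -2.23, adjusted p = 3.01e-08). The 22 amacrine cell markers summed to 2636 to 2751 CPM in WT and to 3122 to 3463 CPM in NS-treated rd10. In whole retina, fewer cells of a type and less RNA per cell cannot be told apart.

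In the retina most neuropeptides are made by amacrine cells, interneurons of the inner retina that release a peptide beside GABA or glycine. A precursor is sorted into dense-core granules, cut by prohormone convertases at pairs of basic residues, trimmed and often amidated. The released peptide then acts, often at a distance, on G protein-coupled receptors. Penk encodes proenkephalin, the source of the enkephalins, which act on opioid receptors. Sst encodes somatostatin, Gal galanin, Npy neuropeptide Y, Vip vasoactive intestinal peptide, Tac1 substance P and neurokinin A, Cck cholecystokinin, and Adcyap1 the pituitary adenylate cyclase-activating peptide PACAP.

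The Penk mRNA carries several copies of its product, which is why its coding sequence is shown. In the GENCODE M21 annotation (GRCm38), Penk lies on the minus strand at chr4:4133531-4138819. The coding sequence of transcript Penk-201 is 804 bases long and holds 6 copies of Met-enkephalin and 1 of Leu-enkephalin. The first copy, the Leu-enkephalin copy and the last copy are printed 5′ to 3′ with 6 bases on either side. Capitals mark the codons of the enkephalin, and the lower-case codons are the flanks. The copies were counted by these codons alone, whatever follows them. The fourth and the last copies are not followed by codons for a basic pair, and are known to be released within longer forms of Met-enkephalin.

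Penk copy 1, Met-enkephalin, coding bases 298 to 312: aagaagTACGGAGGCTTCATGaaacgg

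Penk copy 6, Leu-enkephalin, coding bases 691 to 705: aagaggTATGGGGGCTTCCTGaagcgc

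Penk copy 7, Met-enkephalin, coding bases 784 to 798: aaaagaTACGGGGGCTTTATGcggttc

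The gene A830012C17Rik lies across Penk on the opposite strand. The sources used here do not say whether reads were counted by strand, so reads of the pair cannot be told apart. Of the 50-base words in the Penk transcripts, 8.6% also occurred in transcripts of other genes.

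The other 7 members are protein-coding genes on GRCm38. Npy lies at chr6:49822710-49829507 and Tac1 at chr6:7554879-7565834, both on the plus strand. Vip lies at chr10:5639218-5647617 and Adcyap1 at chr17:93199017-93206537, also on the plus strand. Sst (chr16:23889573-23890958), Cck (chr9:121489824-121495694) and Gal (chr19:3409915-3414544) lie on the minus strand.

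Neuropeptide genes are known for cyclic AMP response elements (CREs) near their start sites, to which CREB-family factors bind. RefSeq promoter sequences (GRCm38.p6) were searched over the 250 bases before the start, on both strands. Penk had no entry in that table. Among the other 7 members, the full element TGACGTCA was found in Sst. This element is held by 1.55% of the 32851 promoters. The variant TGCGTCA, held by 1.75% of all promoters, was found in Tac1 and Cck. Whether a motif bears on the level of any member was not tested. Capitals mark the motif in the 3 stretches below, printed 5′ to 3′ on the strand of the gene.

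Sst, chr16:23890875-23890902, minus strand: cctccttggcTGACGTCAgagagagagt

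Cck, chr9:121495727-121495753, minus strand: cctgctggacTGCGTCAgcactgggta

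Tac1, chr6:7554852-7554878, plus strand: tccctaaaatTGCGTCAtttcgaacac

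The shorter core CGTCA, which lies within both longer motifs, occurred in Vip, Tac1, Sst, Cck and Adcyap1, against 17.77% of all promoters. The AP-1 motif TGANTCA, held by 6.75% of promoters, was in none of these 7. Npy and Gal held none of the 4 motifs in these windows.

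Penk was the member whose level differed most in absolute CPM between WT and saline-treated rd10. It measured 6.46, 6.09 and 6.41 CPM in the 3 WT libraries. In the NS group it measured 23.3, 20.5 and 13.6 CPM, and in the MSC-EVs group 7.49, 12.8 and 6.87 CPM. The 3 groups did not overlap: all NS libraries lay above all MSC-EVs libraries, and these lay above all WT libraries. The means were 6.32 ± 0.201 CPM in WT, 19.1 ± 4.99 CPM in NS-treated and 9.04 ± 3.24 CPM in MSC-EVs-treated rd10 (SD, n = 3 each). The ratio of NS to WT was 3.03 (log2 fold change 1.60, SE 0.185). Between MSC-EVs and NS the log2 fold change was -1.10 (SE 0.298), and between MSC-EVs and WT it was 0.51 (SE 0.231). These comparisons share libraries and chose the list, so none of the 3 is given a p. The WT libraries were tight and the rd10 libraries were spread, and NS replicate 3 lay close to MSC-EVs replicate 2. MSC-EVs replicate 3 alone, which lacks the Y-linked signal, gave -1.47 (SE 0.300) against NS and 0.13 against WT.

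**Figure D1:**
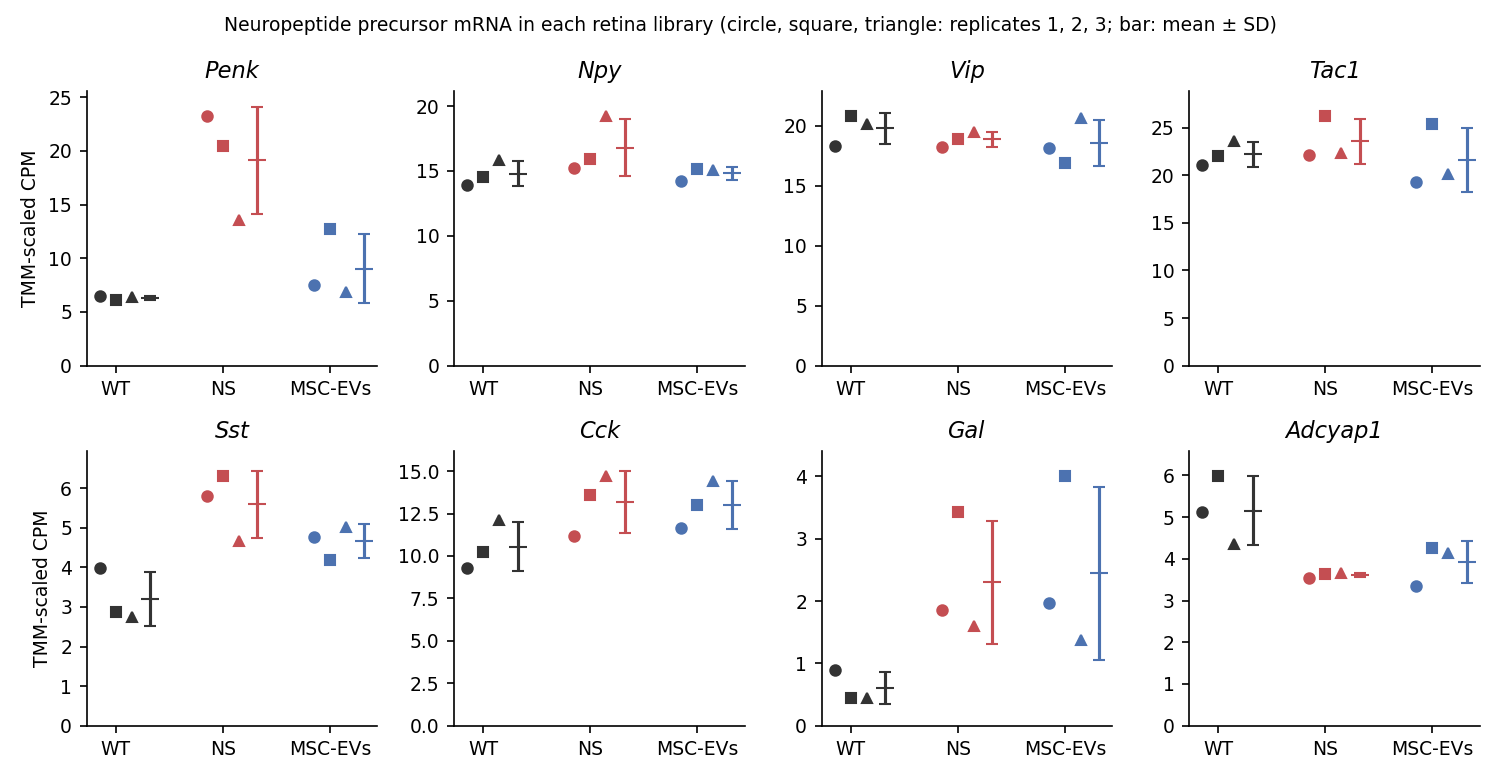
TMM-scaled CPM of the 8 neuropeptide precursors in each of the 9 libraries, 1 panel per gene with an axis from 0, symbols for replicates 1 to 3 and bars for the mean ± SD of a group. The Penk groups do not overlap, with NS at 13.6 to 23.3 CPM and MSC-EVs replicate 2 (12.8 CPM) close to the lowest NS library. Npy, Vip and Tac1 lie at similar levels in all groups.

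Of the 7 other precursors, 2 were higher and 1 was lower in NS-treated rd10 than in WT. Gal is counted among the 2, although it passed the count filter through its NS libraries, where it is high. Over all genes, 31.1% of the 14644 tested were called higher and 30.1% lower in this comparison, so in edgeR the members' calls were not more frequent than those of all genes. The median log2 fold change was 0.18 over the 7 and 0.01 over all genes. Somatostatin and galanin precursors rose, the PACAP precursor fell, and Npy, Vip, Tac1 and Cck did not pass the test. On the authors' FPKM scale, limma on log2(FPKM + 1) called 5 members higher and 0 lower: Sst, Gal, Npy (0.34, adjusted p = 0.00837), Tac1 (0.21, adjusted p = 0.0354) and Cck (0.48, adjusted p = 0.00402). That limma fit called 8178 genes in all. Its share of all genes called higher is not given here, so these 5 members are not compared with all genes.

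Galanin is a peptide known for induction in injured neurons. Gal measured 0.897, 0.448 and 0.451 CPM in WT and 1.86, 3.43 and 1.60 CPM in NS-treated rd10. It was 3.75-fold higher (log2 fold change 1.91, SE 0.389), without overlap between the groups. These are low levels, with 20, 10 and 9 counts behind the WT values and 55, 70 and 35 behind the NS values. At such WT counts, Gal passed the count filter through its NS libraries, where it is high. The call of Gal is therefore read from the edgeR fit with no filter on counts (1.91, adjusted p = 0.000271). In the MSC-EVs group Gal stood at 1.97, 4.01 and 1.37 CPM. It was thus still higher than in WT (log2 fold change 1.99, SE 0.484), and its difference from NS was 0.07 (SE 0.453, adjusted p = 0.955). In the comparison with WT, Gal passed the filter through its MSC-EVs libraries, so its call is read from edgeR with no filter (1.99, adjusted p = 0.00555). With an allowance for Y-linked expression, the rise over WT was 1.20 with an adjusted p of 0.0702.

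Somatostatin acts through inhibitory Sstr receptors and in rodent retina is made by sparse wide-field amacrine cells. Sst measured 3.99, 2.87 and 2.75 CPM in WT and 5.81, 6.32 and 4.67 CPM in NS-treated rd10, again without overlap. It rose 1.74-fold (log2 fold change 0.80, SE 0.195, adjusted p = 0.00358). The MSC-EVs libraries, at 4.77, 4.19 and 5.02 CPM, also lay above all WT libraries (log2 fold change 0.55, SE 0.197, adjusted p = 0.0365). That last call was lost when WT replicate 2 or 3 or MSC-EVs replicate 1 or 3 was left out (adjusted p = 0.0831 to 0.131), with the Y-linked covariate (0.65, adjusted p = 0.0536) and with DESeq2 (adjusted p = 0.0558). Between MSC-EVs and NS the groups overlapped, with a log2 fold change of -0.26 (SE 0.176, adjusted p = 0.451).

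PACAP is carried by the melanopsin-containing ganglion cells that project to the circadian clock. Adcyap1 measured 5.12, 6.00 and 4.36 CPM in WT and a narrow 3.55, 3.63 and 3.66 CPM in NS-treated rd10. It fell by 0.52 on the log2 scale (SE 0.170, adjusted p = 0.019), a call that was lost without WT replicate 2 (log2 fold change -0.39, adjusted p = 0.109). The MSC-EVs libraries stood at 3.35, 4.27 and 4.14 CPM, below all WT libraries but short of a call (log2 fold change -0.39, SE 0.185, adjusted p = 0.0991). The direction depended on the unit. In FPKM (fragments scaled to length and depth, made by the authors), the Adcyap1 values were 2.15, 1.66 and 1.22 in WT and 1.57, 3.44 and 1.17 in NS, and limma on log2(FPKM + 1) gave 0.14. The ratio of FPKM to count for Adcyap1 differed 3.08-fold between libraries, while over 12586 genes the median of that spread was 1.04 and the 95th percentile 1.36. Opn4, the melanopsin gene of these ganglion cells, was itself higher in NS than in WT (log2 fold change 0.55, adjusted p = 0.00614, and 0.27 without a call when scaled to amacrine markers).

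The remaining 4 members did not pass the test between NS and WT. Cholecystokinin, a peptide of amacrine cells, was the nearest to the threshold. Cck measured 9.29, 10.2 and 12.1 CPM in WT, 11.2, 13.6 and 14.7 CPM in NS and 11.6, 13.0 and 14.4 CPM in the MSC-EVs group. Its log2 fold change against WT was 0.31 for NS (SE 0.131, adjusted p = 0.0543) and 0.32 for MSC-EVs (SE 0.131, adjusted p = 0.0636). The call between NS and WT was gained without WT replicate 3 (log2 fold change 0.43) or without NS replicate 1 (0.42), with adjusted p = 0.0277 and 0.0147, and narrowly with no count filter (adjusted p = 0.0496) or with 10 counts in every library (adjusted p = 0.0499). Between MSC-EVs and WT it was gained without WT replicate 3 (0.42, adjusted p = 0.0407) or MSC-EVs replicate 1 (0.40, adjusted p = 0.0438) and with limma on log2(FPKM + 1) and log2(FPKM + 0.1) (adjusted p = 0.00633 and 0.00583). Scaled to amacrine markers, Cck was uncalled in both (0.04 and 0.14).

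Neuropeptide Y was found at 14.0, 14.6 and 15.8 CPM in WT and 15.2, 15.9 and 19.3 CPM in NS. The MSC-EVs libraries held 14.3, 15.2 and 15.1 CPM of Npy, all below the lowest NS library, the nearest pair nearly equal. Neither difference was called (log2 fold change 0.18 with SE 0.105 and adjusted p = 0.155 for NS against WT, and -0.17 with SE 0.113 and adjusted p = 0.429 for MSC-EVs against NS).

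The Vip groups overlapped in each comparison. It measured 18.3, 20.9 and 20.2 CPM in WT, 18.3, 18.9 and 19.5 CPM in NS, and 18.2, 16.9 and 20.7 CPM in the MSC-EVs group. Its log2 fold changes were -0.07 (SE 0.0845, adjusted p = 0.476) for NS against WT and -0.01 (SE 0.104, adjusted p = 0.974) for MSC-EVs against NS. Tac1 measured 21.04, 22.0 and 23.6 CPM in WT, 22.1, 26.3 and 22.3 CPM in NS, and 19.3, 25.4 and 20.1 CPM in the MSC-EVs group. Its log2 fold change was 0.08 (SE 0.0912, adjusted p = 0.46) for NS against WT and -0.12 (SE 0.124, adjusted p = 0.629) for MSC-EVs against NS.

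**Figure D2:**
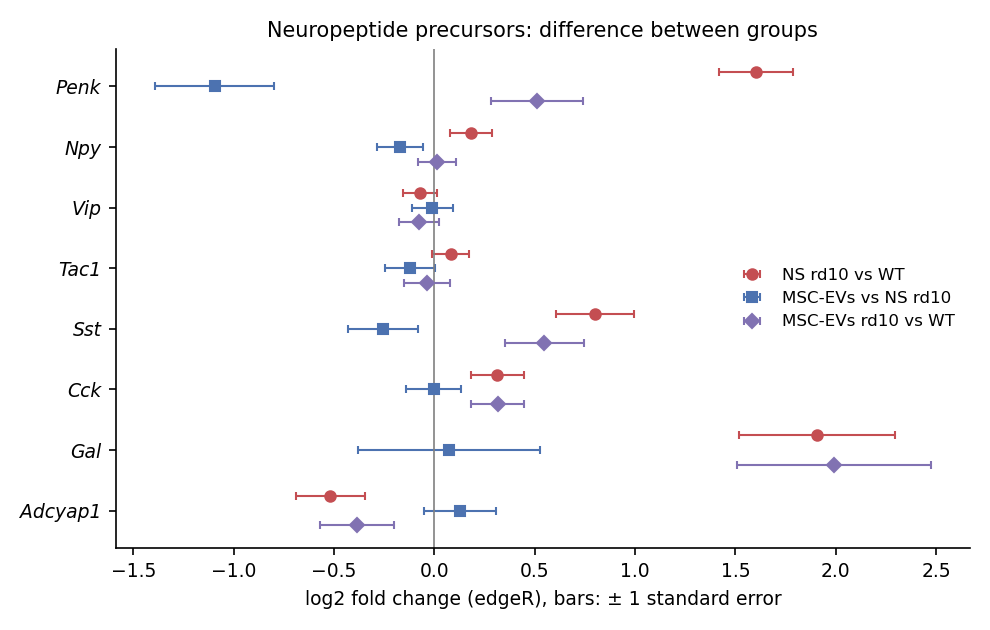
Log2 fold change (edgeR) of each precursor with bars of ± 1 SE, for NS against WT, MSC-EVs against NS and MSC-EVs against WT, with 3 libraries per group. Penk is the member with opposite signs of more than 1 log2 unit in the first and second comparison, and Gal lies near 2 in both comparisons with WT.

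These values are shares of all counts in a library, and the rod markers took a larger share in WT. When libraries were instead scaled to the 22 amacrine markers, the median log2 fold change of all genes between NS and WT shifted by -0.28. On that scale Penk stood at 1.33, and Sst at 0.53 and Gal were still called higher. Vip was called lower at -0.35 and Adcyap1 at -0.80 (adjusted p = 0.00135), and the uncalled values of Npy and Tac1 turned to -0.10 and -0.19.

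With the vesicles, none of the 7 precursors other than Penk was called against NS. Over all 14765 genes tested, 0.914% were called higher and 0.251% lower. The median log2 fold change was -0.01 over the 7 and 0 over all genes. At an unadjusted p under 0.05 the count was still 0 of 7 with edgeR, and DESeq2 called 0. Over all genes, 2980 of the 14765 tested by edgeR reached that unadjusted level. The unadjusted counts of the lists below are to be read beside that background. With replicate 3 as the only MSC-EVs library, the log2 fold changes were -0.14 for Npy, 0.15 for Vip, -0.22 for Tac1, -0.15 for Sst, 0.15 for Cck, -0.72 for Gal and 0.21 for Adcyap1. In number, the calls of this comparison depended strongly on single libraries: 172 genes passed in the full fit, 0 when either NS replicate 3 or MSC-EVs replicate 1 was dropped, and 676 when MSC-EVs replicate 2 was dropped. They also depended on the method, with 947 genes called by DESeq2 and 1026 by a fit of all 9 libraries.

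Against WT, 2 of the 7 precursors, Sst and Gal, were higher in MSC-EVs-treated rd10, and none was lower. Gal passed the count filter through its MSC-EVs libraries, where it is high. Over the 14623 genes tested, 28.3% were higher and 27.2% lower. When libraries were scaled to the amacrine markers, 1 was higher (Gal) and 2 were lower, Vip (-0.26, adjusted p = 0.0409) and Adcyap1 (-0.56, adjusted p = 0.0239), while Sst lost its call (0.37, adjusted p = 0.12). With replicate 3 as the only MSC-EVs library, the log2 fold change was 0.65 for Sst, 1.19 for Gal and 0.46 for Cck. A lone library shows no spread of its own, so no call is given for that fit. In the same fit Adcyap1 stood at -0.31, Npy at 0.04, Vip at 0.07 and Tac1 at -0.14.

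Compared per length, neuropeptide Y was the precursor with the highest mean in all 3 groups. In the MSC-EVs group the Npy libraries (26.13 to 27.75 FPKM) overlapped those of Tac1 (19.94 to 26.36 FPKM). In WT the order by mean FPKM ± SD was Npy (24.1 ± 1.49), Tac1 (21.1 ± 1.07), Cck (14.1 ± 1.78), Vip (11.96 ± 0.848), Penk (4.35 ± 0.160), Sst (4.11 ± 0.874), Adcyap1 (1.68 ± 0.465) and Gal (0.713 ± 0.309). The neighbours Cck and Vip overlapped, as did Penk and Sst, and the other neighbours did not. In NS-treated rd10, Penk took the fourth place at 14.5 ± 3.55 FPKM, between Cck at 20.1 ± 2.81 and Vip at 12.9 ± 0.511, and it overlapped both. Gal (3.07 ± 1.3) stood above Adcyap1 (2.06 ± 1.21) there, with overlap. In MSC-EVs-treated rd10, Penk was again in the fifth place at 6.93 ± 2.44 FPKM, beside Sst at 6.68 ± 0.597.

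**Figure D3:**
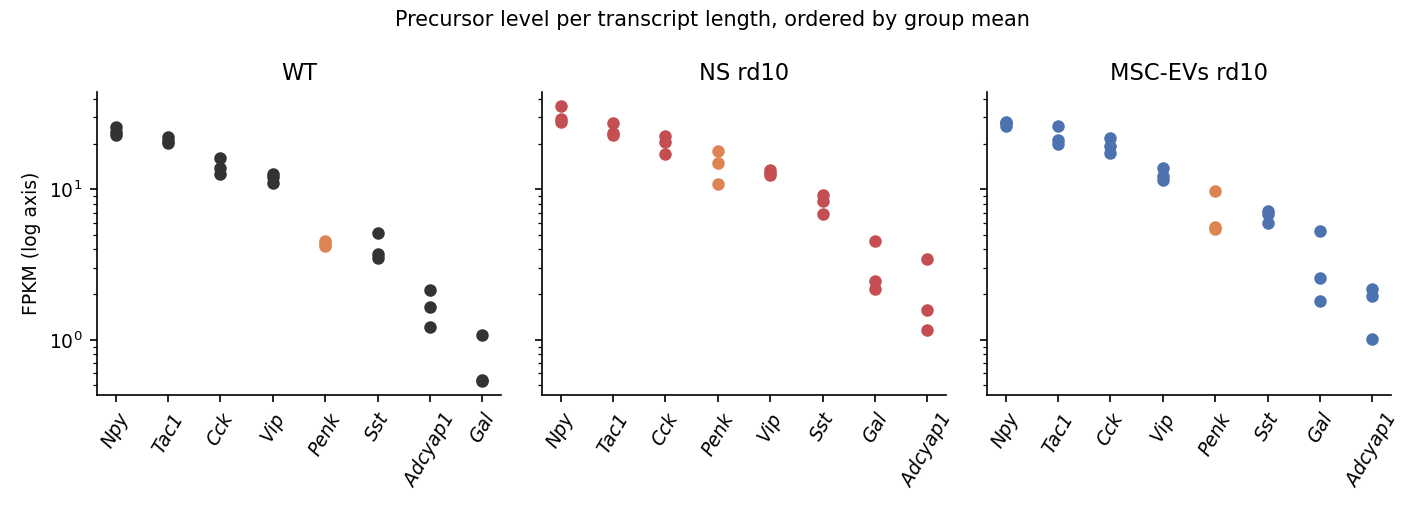
FPKM of each library on a log axis, with the 8 precursors ordered by the mean of each group and Penk in orange. Npy, Tac1 and Cck lead in all 3 groups, and Penk stands in the fifth place in WT and MSC-EVs and in the fourth place in NS.

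The peptides act through G protein-coupled receptors, some of which are shared between peptides. Of the 24 receptor genes of the 8 peptides, 13 had enough counts to be tested between NS and WT, 4 of them were higher and none was lower. Their median log2 fold change was 0.31, against 0.01 over all genes and a background of 31.1% called higher. On the amacrine scale 1 of the 4, Cckbr, was still called. Per length, the VIP and PACAP receptor Vipr2 was the most abundant (14.6 FPKM in WT), followed by the neurokinin B receptor Tacr3 (9.40 FPKM).

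The gastrin and cholecystokinin receptor Cckbr had the largest difference among the called receptors. It measured 9.47, 10.6 and 11.5 CPM in WT, 28.2, 17.5 and 25.0 CPM in NS and 23.6, 18.4 and 21.2 CPM in the MSC-EVs group. Both rd10 groups lay above WT without overlap (log2 fold change 1.17, SE 0.164, adjusted p = 0.000155 for NS, and 1.01, adjusted p = 7.24e-05, for MSC-EVs). The receptor thus differed by more than its ligand Cck, although the difference between the genes was not tested.

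The PACAP receptor Adcyap1r1 stood at 13.5, 13.0 and 13.8 CPM in WT and at 18.4, 19.4 and 18.5 CPM in NS. It rose (log2 fold change 0.48, SE 0.0843, adjusted p = 0.000364, but 0.21 without a call on the amacrine scale) and stayed at 18.1 to 19.4 CPM with vesicles. The VIP receptor Vipr1 rose by 0.75 (SE 0.282, adjusted p = 0.0352), a call lost without WT replicate 1 or 2 or NS replicate 2 or 3 (adjusted p = 0.0674 to 0.137). Tacr3 rose by 0.29 (SE 0.0759, adjusted p = 0.0056) and was at 0.01 on the amacrine scale. The 9 others did not pass. Among them, the log2 fold change was 0.12 for Vipr2, 0.11 for the substance P receptor Tacr1, 0.31 for Npy1r, 0.48 for Npy5r, -0.89 for Npy6r, 0.34 for Sstr1, 0.24 for Sstr2, -0.06 for Sstr3 and 0.51 for Galr2.

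The opioid receptors, on which enkephalins act, were close to the limit of detection. The delta receptor Oprd1 and the kappa receptor Oprk1 averaged 0.173 and 0.290 CPM in WT and were too low to be tested. The mu receptor Oprm1 was at 0.269, 0.448 and 0.451 CPM in WT, 0.575, 0.294 and 0.321 CPM in NS and 1.05, 1.15 and 1.12 CPM in the MSC-EVs group. All 3 MSC-EVs libraries lay above the other 6. Oprm1 passed the count filter only through the MSC-EVs libraries, where it is high, so its log2 fold changes of 1.51 against WT and 1.44 against NS are given as a description. With no filter on counts it was called against WT (1.51, adjusted p = 0.00538) and not against NS (1.43, adjusted p = 0.0868). A fit of all 9 libraries, which Oprm1 also entered through the MSC-EVs libraries, gave 1.43 against NS. Its adjusted p under 0.05 there is for that reason not read as a call. Oprm1 could not be fitted where 10 counts were required in every library. The WT values rest on 6 to 10 counts each. Between MSC-EVs and NS, edgeR called 0 of 13 receptors in the fit of these 2 groups (2 at an unadjusted p under 0.05), and DESeq2 called 0. The fit of all 9 libraries called no receptor other than Oprm1, which is left as a description. Too few counts were also found for Npy2r, Npy4r, Tacr2, Sstr4, Sstr5, Cckar, Galr1 and Galr3.

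**Figure D4:**
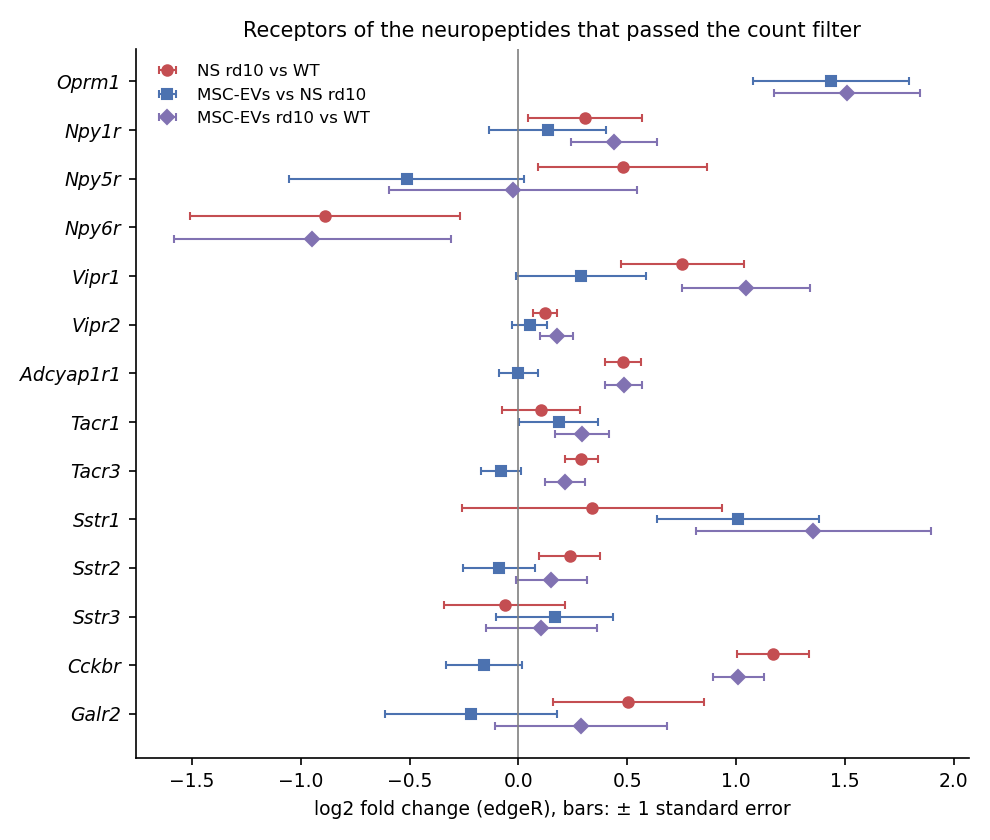
Log2 fold change (edgeR) with bars of ± 1 SE of the receptors that passed the count filter in at least 1 comparison, for the 3 comparisons of groups of 3 libraries. Cckbr lies near 1 in both comparisons with WT, and Oprm1, which passed the filter only through the MSC-EVs libraries where it is high, lies near 1.5 in both comparisons with that group.

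The machinery that turns precursors into peptides was abundant in all groups. Of 17 processing and granule genes, 13 rose and 2 fell from WT to saline-treated rd10, beside 31.1% of all genes higher and 30.1% lower, with a median log2 fold change of 0.23. On the amacrine scale 3 of the 13, Ctsl, Ptprn and Cadps2, were still called higher, and the direction of Furin, Qpct, Chga, Chgb, Scg2 and Cadps turned. Cathepsin L (Ctsl), a protease of lysosomes and granules that can cut proenkephalin, had the largest difference. It measured 137.7, 127.4 and 125.9 CPM in WT and 272.4, 306.5 and 284.2 CPM in NS (log2 fold change 1.14, adjusted p = 2.27e-08). The granule exocytosis factor Cadps2 rose by 0.94 and the granule membrane proteins Ptprn and Ptprn2 by 0.61 and 0.35. Ptprn2 lost its call without any 1 of WT replicates 2 and 3 or NS replicates 1 and 3 (adjusted p = 0.0776 to 0.11).

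Carboxypeptidase E (Cpe), which trims the basic residues left by the convertases, went the other way. It fell from 1572, 1514 and 1537 CPM in WT to 1115, 1239 and 1148 CPM in NS (log2 fold change -0.40, adjusted p = 0.000113). Scg5, the chaperone of the convertase Pcsk2, fell by 0.22 on the log2 scale (adjusted p = 0.00343). Pcsk2 rose by 0.31 (adjusted p = 0.00161), and Pcsk1 did not pass (0.22, adjusted p = 0.0955). Between MSC-EVs and NS, edgeR called 0 of the 17 (2 at an unadjusted p under 0.05), DESeq2 called 0, and the fit of all 9 libraries called 1 lower, the granule protein Pcsk1n (-0.25, adjusted p = 0.0407). Ctsl remained at 281.8, 323.9 and 235.9 CPM with vesicles.

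Among 12 peptidases that can degrade neuropeptides, 5 rose and 4 fell from WT to saline-treated rd10, with a median of 0.17, beside 31.1% of all genes higher and 30.1% lower. Scaled to amacrine markers, 3 were higher and 5 lower. Neprilysin (Mme) and aminopeptidase N (Anpep), which break down enkephalins, were both higher, by 0.90 (adjusted p = 0.0105) and 1.36 (adjusted p = 0.00238). Mme lay at 1.80, 0.985 and 1.45 CPM in WT and 3.11, 2.30 and 2.47 CPM in NS, and its call was lost on the amacrine scale and without WT replicate 2 (adjusted p = 0.056 and 0.0534). Neurolysin (Nln) rose by 0.91, the endothelin-converting enzyme Ece1 by 0.59 and the angiotensin-converting enzyme Ace by 0.43, and Ace lost its call on the amacrine scale (0.15). The 4 lower genes, Npepps, Ide, Thop1 and Prep, fell by 0.25 to 0.38 on the log2 scale, and Thop1 lost its call in 4 of the 6 fits that left out a library. Between MSC-EVs and NS, edgeR called 0 of the 12 (3 at an unadjusted p under 0.05), and DESeq2 called 0.

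Of 42 other peptide precursor genes, 12 had enough counts in NS and WT, and 3 were called higher and 1 lower, not more often than the 31.1% and 30.1% of all genes. Adrenomedullin (Adm), a vasoactive peptide, rose from 0.494, 0.672 and 0.751 CPM in WT to 2.47, 3.82 and 3.43 CPM in NS (log2 fold change 2.33, adjusted p = 2.05e-05). The calcitonin gene-related peptide gene Calca rose from 0.673, 0.761 and 0.701 CPM to 3.31, 3.97 and 3.34 CPM (log2 fold change 2.30, adjusted p = 5.1e-06). Cartpt rose by 0.19 and was at -0.09 on the amacrine scale. Vgf, a granule protein precursor, fell by 0.44 on the log2 scale (adjusted p = 0.00128).

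The 2 other opioid precursors with enough counts were not called between NS and WT. Prodynorphin (Pdyn) measured 14.1, 16.6 and 12.9 CPM in WT, 16.4, 14.3 and 16.8 CPM in NS and 11.5, 11.4 and 11.0 CPM in the MSC-EVs group. Its difference was not called against WT for NS (log2 fold change 0.11, adjusted p = 0.396) and not called against NS for MSC-EVs (-0.48, adjusted p = 0.063), where DESeq2 gave an adjusted p of 0.0152. Against WT the MSC-EVs libraries were lower (-0.36, adjusted p = 0.0227), a call lost without WT replicate 2 or MSC-EVs replicate 1 (adjusted p = 0.116 and 0.0538), with the Y-linked covariate (-0.40, adjusted p = 0.0617) and with limma on either FPKM scale (adjusted p = 0.189). Of the other precursors, edgeR called 0 of 13 between MSC-EVs and NS (4 at an unadjusted p under 0.05), DESeq2 called Pdyn, and the fit of all 9 libraries called 2 lower, Pdyn (-0.48, adjusted p = 0.0264) and Cartpt (-0.23, adjusted p = 0.0339). Proopiomelanocortin (Pomc) averaged 2.24, 2.79 and 1.77 CPM in WT, NS and MSC-EVs, with no call in any comparison.

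Penk is known to be driven by neuronal activity and by cyclic AMP, and a list of 21 activity-dependent genes was therefore set beside it. Between WT and saline-treated rd10, 14 of them rose and 2 fell, beside 31.1% of all genes higher and 30.1% lower, with a median log2 fold change of 0.56. Fosl1, an AP-1 subunit, had no count in any WT library, where 3 counts would be at most 0.15 CPM, and 7.403, 5.78 and 4.49 CPM in NS, at least 39.2-fold higher. Fosl1 therefore passed the count filter through the NS libraries alone. In the fit with no filter on counts, 14 of the 21 were again higher and 2 lower. Where 10 counts were required in every library, 12 of 19 were higher and 2 lower. Egr2 rose by 3.63, Fosl2 by 2.52 and Junb by 1.65, while Egr4 fell by 1.47 on the log2 scale. On the amacrine scale 10 were higher and 3 lower, and with all 9 libraries in 1 fit 7 were higher and 2 lower, near the 31.1% of all genes called higher in the fit of this pair of groups. Between MSC-EVs and NS, edgeR called 0 of the 21 with all 6 libraries (4 at an unadjusted p under 0.05, beside 2980 of all 14765 genes). DESeq2 called 2 higher and 2 lower, and the fit of all 9 libraries 1 higher and 1 lower. Those 2 fits called 947 and 1026 genes in all. Without MSC-EVs replicate 2, edgeR called 2 higher and 8 lower, in a fit that called 676 genes in all, against 172 with all 6 libraries. No calls are counted with replicate 3 as the only MSC-EVs library.

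Single libraries of the MSC-EVs group differed in some of these genes. Fosl1 measured 0.711, 14.99 and 0.218 CPM in MSC-EVs replicates 1 to 3, Junb 46.3, 95.2 and 43.2 CPM, and Penk 7.49, 12.8 and 6.87 CPM. Replicate 2 was thus the highest of the group for each of the 3. The summed level of the 21 genes was 505.3, 907.1 and 619.6 CPM, also highest in replicate 2, with replicates 1 and 3 in the other order than in Penk. Nr4a3, a nuclear receptor of this list that the study had picked from these libraries, measured 6.28, 7.97 and 9.86 CPM in WT, 28.9, 20.3 and 16.7 CPM in NS and 5.77, 10.9 and 5.86 CPM with vesicles (-1.57, adjusted p = 0.0752 against NS in edgeR and 7.21e-07 in DESeq2). Its part in the Penk values was not tested.

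Some markers of tissue next to the retina were high in the same libraries as Penk, and others were not. Of 9 markers of ciliary body and iris, 8 were tested, and 5 rose and 1 fell from WT to NS, beside 31.1% and 30.1% of all genes, with a median of 0.74. With vesicles, against NS, edgeR called 0 of the 8 (3 at an unadjusted p under 0.05), and DESeq2 called 0. Their summed level was 195.1 to 202.0 CPM in WT, 199.2, 133.6 and 139.0 CPM in NS and 91.97, 139.0 and 128.1 CPM with vesicles, which did not follow Penk. It was dominated by Aqp1, which retinal cells also express and which fell by 1.87 on the log2 scale between WT and NS. Opticin (Optc), a vitreous protein made by the ciliary epithelium, measured 4.53, 3.67 and 4.66 CPM in WT, 54.6, 20.8 and 28.9 CPM in NS and 5.10, 33.0 and 4.40 CPM with vesicles. Optc was thus high in the 4 libraries with the most Penk and near its WT level in the other 5. In MSC-EVs replicates 1 and 3, with Optc at its WT level, Penk lay at 7.49 and 6.87 CPM, a little above the 3 WT libraries. Cldn2, Zic1 and Wfdc1 were higher in NS than in WT by 2.23, 0.77 and 0.70, and Msx1 was too low to be tested. Their part in the Penk values was not tested.

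Other non-neuronal lists also differed between libraries. The 10 pigment epithelium markers, led by Ttr, summed to 294.8, 95.98 and 210.0 CPM in NS and to 115.3, 99.72 and 238.9 CPM with vesicles, with 4 of 10 called higher in NS than in WT (Tyrp1, Tyr, Best1 and Rrh), near the 31.1% of all genes. That count lay between 1 (without WT replicate 1) and 8 (without NS replicate 2) when single libraries were left out, with 2 in each of the other 4 fits, and was 1 on the amacrine scale. The calls of Tyrp1, Tyr and Best1 were each lost without WT replicate 1 (adjusted p = 0.13, 0.0672 and 0.13) and without other single libraries. Rrh was called between MSC-EVs and NS (-0.46, adjusted p = 0.0497), and lost that call when any library but MSC-EVs replicate 2 was left out (adjusted p = 0.086 to 0.2), on the amacrine scale (adjusted p = 0.147) and with the Y-linked covariate (adjusted p = 0.0623). All 14 microglia markers were higher in NS than in WT, with a median of 3.41. Their sum was 81.66 to 88.03 CPM in WT, 596.1, 555.3 and 484.6 CPM in NS and 586.8, 692.7 and 392.8 CPM with vesicles, within each rd10 group in the order of Penk. Their part in the Penk values was not tested. Of 12 Müller glia markers 9 were higher and 1 lower (8 and 3 on the amacrine scale), led by Crym (2.85) and Apoe (2.10), and Car14 was called lower with vesicles (-0.51, adjusted p = 0.032), a call lost without NS replicate 1 or 3 or MSC-EVs replicate 1 or 3 (adjusted p = 0.0557 to 0.169) and with the Y-linked covariate (adjusted p = 0.0728). DESeq2 and the fit of all 9 libraries each called 3 of the 12 lower with vesicles, Car14, Rlbp1 and Glul. Those fits called 947 and 1026 genes in all, against 172 in the main fit. Their shares of all genes called lower are not given here, so these calls are not compared with all genes. Among neurons, 16 of 22 amacrine and 8 of 14 ganglion cell markers were higher and none lower in NS than in WT, beside 31.1% of all genes higher, with medians of 0.27 and 0.35. Without NS replicate 3 the amacrine count was 10. On the amacrine scale 2 markers were higher and 1 lower in each of these 2 lists. For the amacrine list that near balance is set by the scaling itself, which uses the same markers. With vesicles, against NS, edgeR called 0 of the 22 and 0 of the 14. At an unadjusted p under 0.05 the counts were 5 and 6, beside 2980 of all 14765 genes. DESeq2 and the fit of all 9 libraries each called 1 lower in either list, Pax6 (-0.24 with DESeq2, adjusted p = 0.0241) and Stmn2 (-0.21 with DESeq2, adjusted p = 0.0428).

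Across the 9 libraries, the transcripts most like Penk were named by the Pearson correlation of log2 CPM among 14907 genes. They were Mfap4 (0.979), Pmepa1 (0.970), Coq10b (0.967), Cacng7 and Tox (0.966 each), Arhgef19 (0.964), Ier5 and Ptpn22 (0.960 each), Slc6a13 (0.958) and Cables1 (0.955). Mfap4, a microfibril-associated matrix protein, measured 0.763, 0.403 and 0.451 CPM in WT, 10.1, 12.2 and 4.17 CPM in NS and 1.00, 5.42 and 0.886 CPM with vesicles. Of the listed genes, Wfdc1 (0.941), Optc (0.934) and Nr4a3 (0.916) ranked 26, 32 and 55. Among the other members, Sst (0.74) and Gal (0.71) were nearest and Adcyap1 (-0.61) and Vip (-0.46) farthest. These correlations describe 9 libraries of 3 groups, whose group means and depth the points share.

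**Figure D5:**
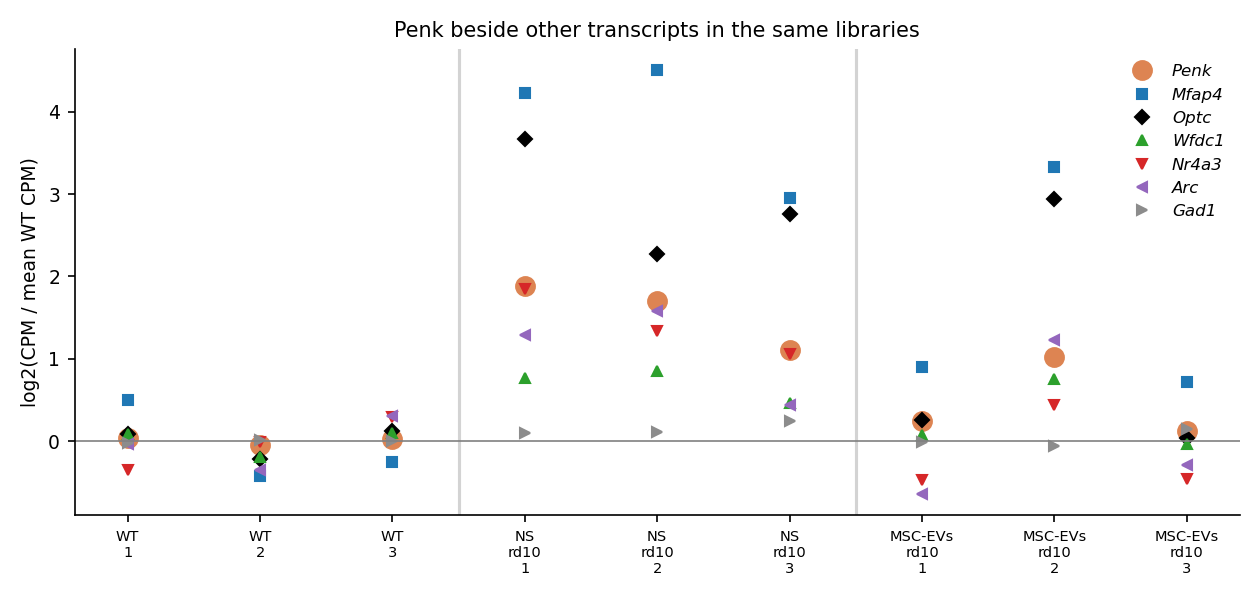
Log2 ratio of the CPM of each library to the mean of the 3 WT libraries for Penk, Mfap4, Optc, Wfdc1, Nr4a3, Arc and the amacrine marker Gad1, with the 9 libraries along the horizontal axis. Penk is high in the 3 NS libraries and, within the MSC-EVs group, highest in replicate 2 (12.8 CPM), where Optc is also high (33.0 CPM).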

How the data were processed

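RNA was measured in 9 retina libraries, 3 in each of 3 groups taken from the labels. The authors deposited 1 table of estimated counts and FPKM values for 22337 genes. The estimated counts were not scaled by the authors, and the FPKM values were normalized by them for length and depth. The submitters' processing notes name fastp, Bowtie2, HISAT2, StringTie 1.3.1 and RSEM; the genome build and annotation were not given in the sources used here.

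Estimated counts, of which 9.2% to 11.7% of genes per library carried decimals, were rounded. Each pair of groups was fitted alone with edgeR 4.0.16 in R 4.3.3 (filterByExpr, TMM, glmQLFit with robust estimation, glmQLFTest), and p-values were adjusted over all genes tested. The SE was the absolute log2 fold change divided by the square root of F. Alternatives used DESeq2 1.42.0, limma 3.58.1 on log2(FPKM + 1) or log2(FPKM + 0.1), other filters, scaling to amacrine markers, a replicate block, a Y-linked covariate and the omission of libraries. An alternative without MSC-EVs replicates 1 and 2 was added after the values were seen. A lone library was then assumed to vary like the other group.

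The members and gene lists were chosen with earlier results of these data known. The genes named were all members and receptors, up to 5 genes per other list with the largest called change between NS and WT, every listed gene called between MSC-EVs and NS, the 10 genes most like Penk, the most abundant marker of each list (some are not reported here), Pde6b and the 4 Y-linked genes; further genes of the lists (such as Nr4a3, Arc, Gad1, Pdyn, Pomc, Pcsk1, Pcsk2, Scg5 and genes quoted for a changed call) were added after their values were seen. Positions came from GENCODE M21 (22232 of the identifiers matched) and promoters from RefSeq (GRCm38.p6), where 7 members had an entry.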

Additional observations from a re-analysis of the deposited data

How the results depend on the processing

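The Penk values in these same libraries chose the list, so its range over the alternatives is a description and no support for its differences. Its log2 fold change lay between 1.33 and 1.80 for NS against WT, between -1.47 and -0.92 for MSC-EVs against NS, and between 0.13 and 0.69 for MSC-EVs against WT. Sst and Gal were called between NS and WT in every alternative except the fold limit for Sst (Gal could not be fitted where 10 counts were required in every library). Gal entered the main fit through its NS libraries, where it is high. Uncalled members near 0 changed sign more often; unless stated, the cause was not tested.

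With a limit of at least 1 on the absolute log2 fold change, 1864 genes and 1 member were called for NS against WT, 9 genes for MSC-EVs against NS, and 1784 genes and 1 member for MSC-EVs against WT. Limma on either FPKM scale called 5 members for NS against WT. Genes called between MSC-EVs and NS numbered 329 on the amacrine scale, 947 with DESeq2, 1026 with all 9 libraries in 1 fit, 295 without MSC-EVs replicates 1 and 2, and 0 to 676 when single libraries were left out (32 without NS replicate 2). Members called against WT in the MSC-EVs group numbered 1 with DESeq2, 1 with 10 counts in every library and 1 with the Y-linked covariate (there Cck, 0.45, adjusted p = 0.0423, in place of Sst and Gal), and lay between 1 and 2 when single libraries were left out; for NS against WT they lay between 2 and 4.

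On the amacrine scale, log2 fold changes turned to -0.10 for Npy and -0.19 for Tac1 (NS against WT), 0.08 for Vip and 0.09 for Cck (MSC-EVs against NS) and -0.16 for Npy (MSC-EVs against WT). With limma on log2(FPKM + 1) and log2(FPKM + 0.1), they turned to 0.10 and 0.11 for Vip and 0.14 and 0.17 for Adcyap1 (NS against WT), to -0.13 and -0.18 for Adcyap1 (MSC-EVs against NS), and to 0.06 and 0.07 for Vip, 0.09 for Tac1 and 0.01 for Adcyap1 (MSC-EVs against WT, the last on the first scale only). With the Y-linked covariate, MSC-EVs against NS turned to 0.15 for Vip, 0.14 for Cck and -0.73 for Gal, and MSC-EVs against WT to 0.06 for Vip. Without MSC-EVs replicates 1 and 2 these were 0.15, 0.15, -0.72 and 0.07.

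When single libraries were left out, signs changed for Tac1 (0 to 0.13) for NS against WT, for Vip (-0.10 to 0.06), Cck (-0.11 to 0.08) and Gal (-0.47 to 0.47) for MSC-EVs against NS, and for Npy (-0.03 to 0.06) and Tac1 (-0.17 to 0.04) for MSC-EVs against WT.

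The labels state no pairing of libraries by replicate number. Same-number correlations of deviations from the group means were 0.031, -0.058 and -0.058 for NS with WT. For MSC-EVs with NS they were 0.093, 0.174 and 0.272, against -0.189 to 0.003 for different numbers. Each library there correlated best with its own number, a hint of pairing from the data and not from the design. With the replicate block, 403 genes were called between MSC-EVs and NS, and Cck was called against WT for NS (0.32, adjusted p = 0.0226) and MSC-EVs (0.31, adjusted p = 0.0374). No other call changed among the 7 members that were tested, which leave out Penk.

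Depth limits Gal, with 9 to 20 counts in WT, and the receptors that were too low to be tested.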
